A study of Homo sapiens with 9 samples.

Results

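Clathrin-mediated endocytosis and endosomal sorting were followed at the mRNA level through 44 named genes in LAPC4 cells, a human prostate cancer line. The 44 symbols were chosen by role: clathrin and its AP-2 adaptor, accessory proteins of the coated pit, RAB GTPases of early and recycling endosomes, and ESCRT genes of endosomal sorting. Of these, 42 had 10 or more counts in at least 3 of the 9 libraries, out of 60325 gene rows in all, and they are the members described here. The other two, DAB2, a cargo adaptor, and DNAJC6, which encodes the uncoating cofactor auxilin, had 0 to 8 and 0 to 5 counts per library. BIN1 reached the minimum in 6 libraries and the remaining members in all 9.

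The series asks what the steroid-conjugating enzyme UGT2B28 does in prostate cancer progression, and these RNA libraries were taken at day 30. Of the 3 groups of 3 libraries, the control cells are labelled NT, the second group is labelled as UGT2B28 knockdown (KD4), and the rescue group is labelled as UGT2B28 overexpression on that knockdown background (KD4OE). Knockdown cells were selected with 3 ug/mL puromycin and rescue cells with 1 mg/mL G418, and no selection is named for the controls, so each drug and its genotype cannot be told apart. The labels do not say whether a group was 1 clone, how the knockdown or overexpression was made, or whether replicates came from separate cultures. The p-values therefore measure the spread between libraries only, and that spread may be technical.

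As background, clathrin triskelia of heavy and light chains assemble on the plasma membrane around AP-2, a complex of alpha, beta, mu and sigma subunits that binds membrane lipid and cargo. Epsins, EPS15, intersectins and other scaffolds help start and load the pit, BAR-domain proteins and dynamin bend and cut its neck, and synaptojanins, auxilin and GAK strip the coat. Vesicles then fuse with early endosomes under RAB5 and EEA1, from which cargo recycles through RAB4 and RAB11 or is sorted by ESCRT proteins toward RAB7-positive late endosomes and lysosomes. In epithelial cancer cells this route sets how long receptors such as EGFR stay at the surface.

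Library totals ran from 8132206 to 14185252 gene counts. UGT2B28 itself stood at 5.12, 5.10 and 7.80 CPM (counts scaled to library size with TMM factors) in the control libraries, 8.48, 6.18 and 3.05 in the libraries labelled knockdown and 75.1, 92.9 and 53.5 in the rescue libraries. Its log2 fold change was -0.04 for knockdown-labelled against control (edgeR adjusted p = 0.957) and 3.66 for rescue against knockdown-labelled (adjusted p = 0.00126). The mRNA thus does not bear out the knockdown label, and directions below are those of the libraries labelled knockdown. Knockdown-labelled library 3 stood apart from libraries 1 and 2: a chi-square of its counts, divided by the degrees of freedom, was 69.6 and 74.7 against them, and 3.56 between libraries 1 and 2. The mRNAs of the mitochondrial genome took 11.51%, 12.05% and 8.59% of the counts in the knockdown-labelled libraries, against 6.04% to 6.90% in control and 4.41% to 6.18% in rescue libraries. All 10 luminal prostate markers, KLK3 among them, had counts in every library. Of the 4 leukocyte markers, PTPRC and LYZ were at 0 throughout, CD3E had 0 to 2 counts per library and CD68 27 to 115. The basal markers summed to 0.746 to 2.96 CPM. The 5 fibroblast markers summed to 17.7 to 69.7 CPM in control, 28.5 to 41.1 in knockdown-labelled and 38.4 to 117.5 in rescue libraries; their part in the results below was not tested. In bulk RNA, fewer cells with a transcript and less of it per cell cannot be told apart.

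The members together took 0.371% to 0.386% of all gene counts in the control libraries, 0.311%, 0.306% and 0.377% in knockdown-labelled libraries 1, 2 and 3 and 0.390% to 0.410% in rescue libraries. These are shares of raw counts. With TMM factors, the members' median log2 deviation from the control mean was 0.076, 0.065 and 0.054 in knockdown-labelled libraries 1, 2 and 3. It was 0.052, 0.068 and 0.040 in the rescue libraries. The lower share of knockdown-labelled libraries 1 and 2 was thus not seen on the TMM scale. Ribosomal protein mRNAs took 11.2%, 10.7% and 6.14% in the knockdown-labelled libraries, 7.46% to 7.73% in control and 6.40% to 7.30% in rescue libraries, and their part in the results was not tested. On the scale of CPM per kilobase of exon, which allows a rough comparison of genes, the AP-2 subunits AP2M1 and AP2S1 led the list. The divisor is the union of all annotated exons, which can far exceed the longest transcript, so the order depends on this measure. AP2M1, the mu subunit that reads tyrosine sorting signals, had a control mean of 65.6 ± 3.05 (SD, n = 3) and AP2S1, the small sigma subunit, one of 65.2 ± 1.13. These overlapped, and the next was RAB7A, the late endosomal GTPase, at 55.8 ± 2.14, followed by the light chain gene CLTA at 43.8 ± 2.54. SH3GL1, an endophilin that bends membrane, led the curvature and uncoating genes at 35.95 ± 2.05 and HGS, the ESCRT-0 subunit that binds ubiquitinated cargo, led the sorting genes at 35.6 ± 1.89. Those neighbours did not differ beyond their spread. PICALM, a cargo adaptor that also senses curvature, led the adaptors and scaffolds at 14.7 ± 2.38. At the bottom stood ITSN2 at 1.40 ± 0.255 and AAK1 at 1.25 ± 0.0182, which overlapped, then STON2 at 0.343 ± 0.0686 and BIN1 at 0.188 ± 0.0467, a muscle- and brain-enriched amphiphysin.

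**Figure D1:**
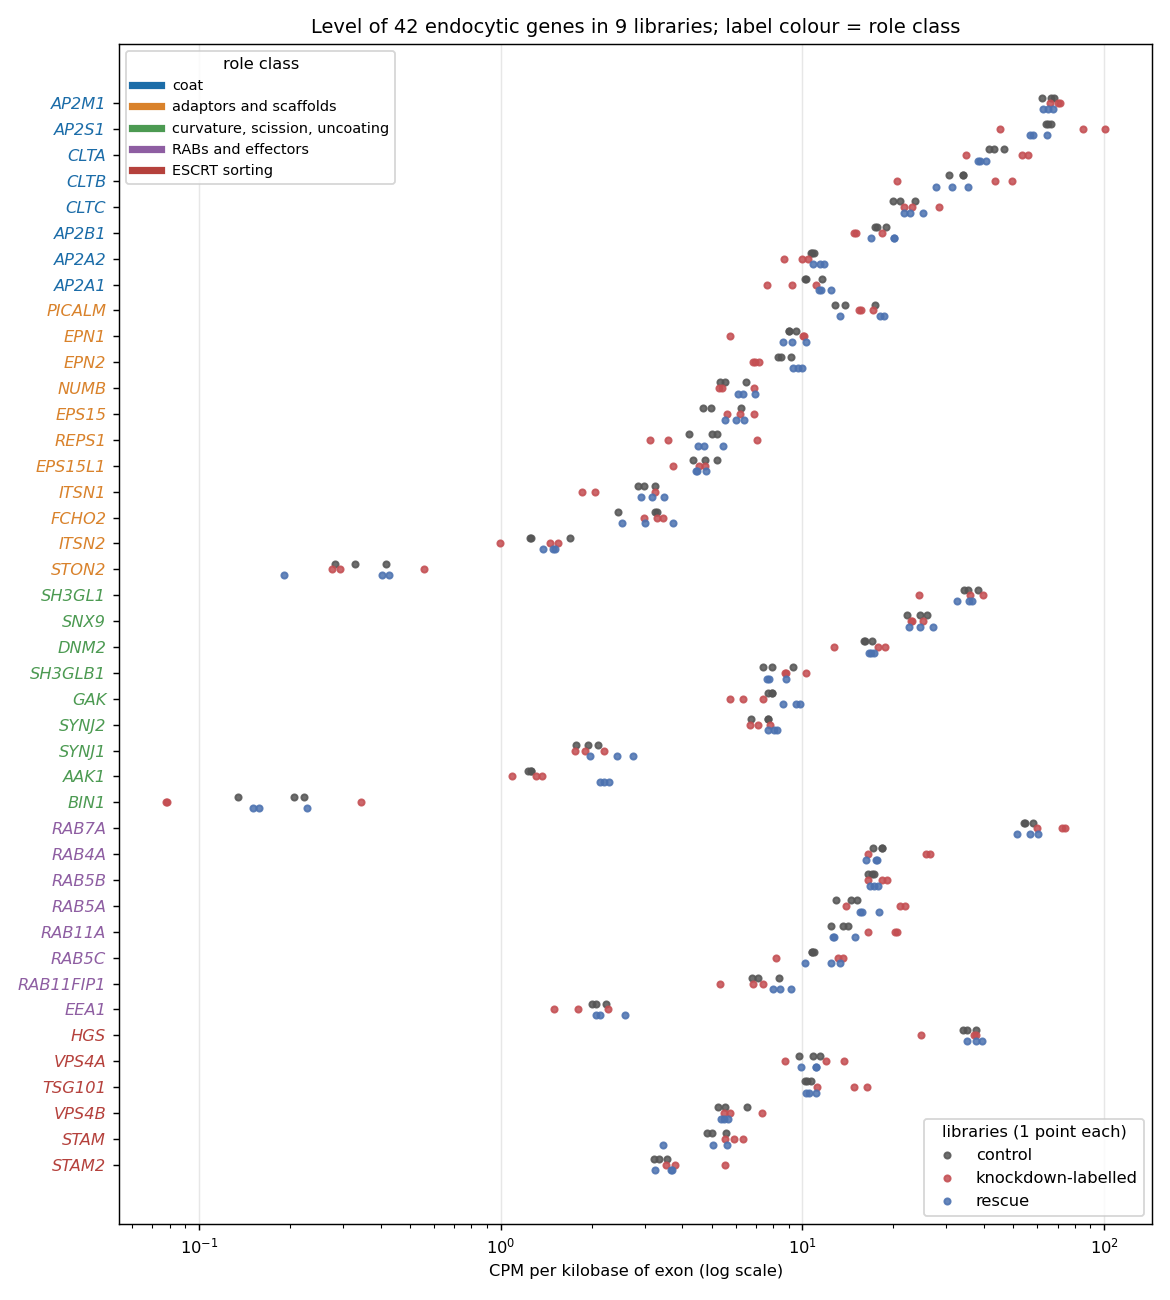
Level of each of the 42 genes in each of the 9 libraries, in CPM per kilobase of exon on a log axis; each point is 1 library, coloured by group, and gene labels are coloured by role class. AP2M1 and AP2S1 lie highest, with control means of 65.6 and 65.2, and BIN1 lowest, at 0.188.

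The leading member of each role class was followed in every library. AP2M1 was at 323, 316 and 296 CPM in control, 341, 334 and 314 in knockdown-labelled and 322, 299 and 310 in rescue libraries, with all groups overlapping. SH3GL1 was at 127, 141 and 129.8 CPM in control, 146, 133 and 89.4 in knockdown-labelled and 134, 119.8 and 131 in rescue libraries. Its lowest value was that of knockdown-labelled library 3. HGS showed the same layout, at 280.3, 289.6 and 311 CPM in control, 311, 304 and 204 in knockdown-labelled and 309.8, 290.6 and 325 in rescue libraries. PICALM was at 80.9, 74.6 and 101.1 CPM in control, 100, 89.9 and 91.1 in knockdown-labelled and 77.7, 109 and 105 in rescue libraries, again with overlapping groups.

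Rescue libraries, in which UGT2B28 stood above both other groups, were first set against knockdown-labelled libraries. AAK1, GAK and EPN2 rose and RAB11A fell. EPN2 encodes an epsin, which couples membrane, ubiquitinated cargo and clathrin. AAK1 encodes the kinase that phosphorylates the AP-2 mu subunit, GAK a related kinase with a J domain that recruits HSC70 to strip clathrin coats, and RAB11A the GTPase of recycling endosomes. The 3 rises among 42 members, 7.14%, stand beside 4.44% of the 16796 tested genes that rose, and the single fall, 2.38%, beside 5.39% that fell. Both shares lie near the background of the whole table.

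EPN2 was at 72.1, 70.6 and 78.3 CPM in control, 59.1, 61.4 and 58.2 in knockdown-labelled and 79.2, 82.2 and 84.7 in rescue libraries. The knockdown-labelled libraries lay below all others and the rescue libraries above all others. The log2 fold change of rescue against knockdown-labelled was 0.46 (SE 0.101, 95% confidence interval 0.24 to 0.68, adjusted p = 0.0216), or 1.38-fold. Leaving out knockdown-labelled library 1 or 2, or any 1 rescue library, took the adjusted p to between 0.0674 and 0.0812 with the change at 0.45 to 0.48. Over all 19 alternatives its adjusted p ran from 0.000484 to 0.271.

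AAK1 stood at 29.8, 29.1 and 29.9 CPM in control, 25.7, 30.8 and 32.3 in knockdown-labelled and 51.99, 53.8 and 50.5 in rescue libraries. The rescue libraries formed a level of their own, above every other library, while control and knockdown-labelled libraries overlapped. The log2 fold change of rescue against knockdown-labelled was 0.81 (SE 0.119, 95% confidence interval 0.55 to 1.08, adjusted p = 0.00866), or 1.76-fold. It passed with any 1 of the 9 libraries left out, and it missed the threshold (adjusted p = 0.0546) where the fit held only the groups compared. Over the 19 alternatives the adjusted p ran from 2.26e-07 to that value.

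GAK was at 119.8, 116 and 120.2 CPM in control, 112, 96.3 and 87.1 in knockdown-labelled and 148, 130.2 and 144 in rescue libraries. No knockdown-labelled library reached a control library, and no control library reached a rescue library. The log2 fold change of rescue against knockdown-labelled was 0.52 (SE 0.122, 95% confidence interval 0.25 to 0.78, adjusted p = 0.0273), or 1.43-fold. The adjusted p was 0.0501 to 0.113 without any 1 control library, knockdown-labelled library 2 or any 1 rescue library, with the change at 0.48 to 0.57. After a loess correction for exon length and GC content the change was -0.042 (adjusted p = 0.831), so the rise in GAK was not seen on that scale. Over the 19 alternatives its adjusted p ran from 0.00102 to that value.

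RAB11A moved the other way. It stood at 70.5, 77.7 and 80.2 CPM in control, 117, 115 and 93.8 in knockdown-labelled and 72.5, 71.7 and 84.6 in rescue libraries. The knockdown-labelled libraries were the highest, and control and rescue libraries overlapped. The log2 fold change of rescue against knockdown-labelled was -0.51 (SE 0.126, 95% confidence interval -0.79 to -0.23, adjusted p = 0.0327), or a level that fell by 29.8%. The adjusted p was 0.0528 to 0.127 without any 1 control library, any 1 rescue library, or knockdown-labelled library 1 or 2, and 0.217 with a change of -0.24 under library size alone. The lowest among the 19 alternatives was 7.51e-05, without knockdown-labelled library 3.

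**Figure D2:**
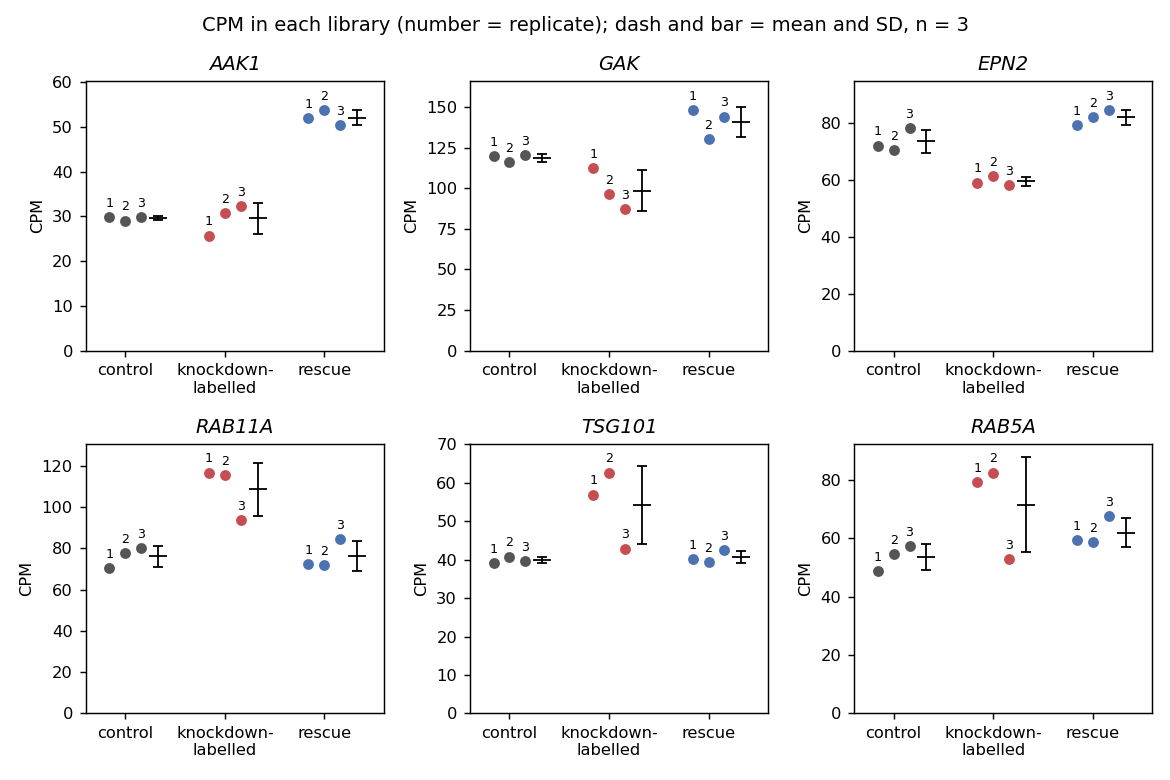
CPM of 6 endocytic genes in each library, with the replicate number above each point and the group mean and SD (n = 3) as a dash and bar; every axis starts at 0. AAK1 lies at 50.5 to 53.8 in the rescue libraries and at 25.7 to 32.3 elsewhere, and RAB11A is highest in the libraries labelled knockdown.

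In GENCODE 29 (GRCh38), AAK1 spans 69457997 to 69674349 of chromosome 2 and GAK 849276 to 932373 of chromosome 4, both on the minus strand. EPN2 spans 19215615 to 19336715 of chromosome 17 and RAB11A 65726054 to 65891991 of chromosome 15, both on the plus strand. The promoters of these 4 genes are shown because they are the members that passed. Each is the 250 bases before the RefSeq gene start (GRCh38.p14), read 5′ to 3′ on the gene's strand, at chr2:69643740-69643989 for AAK1, chr4:932317-932566 for GAK, chr17:19237116-19237365 for EPN2 and chr15:65869241-65869490 for RAB11A. The RefSeq starts of all 4 genes lie inside the GENCODE spans. Capitals mark the GC box, GGGCGG on either strand, the core of sites bound by SP and KLF factors.
AAK1: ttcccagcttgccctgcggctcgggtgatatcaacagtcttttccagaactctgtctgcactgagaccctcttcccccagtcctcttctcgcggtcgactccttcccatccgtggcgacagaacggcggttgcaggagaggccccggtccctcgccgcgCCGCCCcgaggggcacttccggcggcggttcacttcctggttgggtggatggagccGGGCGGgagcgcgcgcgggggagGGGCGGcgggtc
GAK: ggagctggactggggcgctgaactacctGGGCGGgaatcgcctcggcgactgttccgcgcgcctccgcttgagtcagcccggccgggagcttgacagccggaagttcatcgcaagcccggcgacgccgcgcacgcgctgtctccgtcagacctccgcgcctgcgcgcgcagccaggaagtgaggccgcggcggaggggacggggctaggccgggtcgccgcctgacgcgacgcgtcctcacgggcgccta
EPN2: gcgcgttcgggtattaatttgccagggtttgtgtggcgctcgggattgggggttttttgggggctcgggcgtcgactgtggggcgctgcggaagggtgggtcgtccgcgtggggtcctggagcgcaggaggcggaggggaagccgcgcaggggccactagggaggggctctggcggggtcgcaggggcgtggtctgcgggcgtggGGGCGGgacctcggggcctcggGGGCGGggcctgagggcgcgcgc
RAB11A: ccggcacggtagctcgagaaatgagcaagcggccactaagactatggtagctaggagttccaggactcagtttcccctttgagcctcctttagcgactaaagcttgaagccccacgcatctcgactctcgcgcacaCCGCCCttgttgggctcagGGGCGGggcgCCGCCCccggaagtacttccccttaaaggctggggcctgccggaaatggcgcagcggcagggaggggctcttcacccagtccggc
Their GC contents were 68.8%, 73.6%, 74.0% and 62.8% in the order printed, and the number of GC boxes was 3, 1, 2 and 3. The GC box was thus present before the 3 genes that rose and the 1 that fell. It occurred in 33 of the 41 members with a promoter entry, 80.5%, against 65.6% of 11036 promoters of genes with counts and 42.3% of all 27305. CCAAT was in 34.1% of the members' promoters and 35.5% of those of genes with counts, the EGR letters GCGNGGGCG, which can overlap a GC box, in 17.1% and 13.4%, and CACGTG in 7.32% and 8.81%. CGCATGCG, the core of NRF1 sites, was in 2.44% and 3.37%. TATAAA was in 0 of the 41 members' windows and in 5.86% of those of genes with counts. These are matches of letters on both strands in this window and not bound sites.

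Across the 42 members, 23 had a positive log2 fold change for rescue against knockdown-labelled, 54.8% against 49.7% of all tested genes. An unadjusted p under 0.05 was found for 10, 23.8% against 28.3% of all tested genes. The members' median was 0.05, beside -0.0023 for all genes. It was 0.31 beside 0.24 for all genes under library size alone, and -0.11 beside -0.0701 after the length and GC correction. In 6 members every rescue library lay above every knockdown-labelled one, 14.3% against 14.6% of all genes, and in 2 every rescue library lay below, 4.76% against 14.0%. The 6 were AAK1, EPN2, GAK, the recycling effector RAB11FIP1 and the AP-2 alpha subunits AP2A1 and AP2A2, and the 2 were RAB11A and TSG101. By role, in classes of 6 to 11 genes, the count of positive values varied beside the 49.7% of all tested genes. It was 3 of 8 coat genes, 8 of 11 adaptors and scaffolds and 8 of 9 curvature, scission and uncoating genes. The kinase genes AAK1 and GAK were placed in the last of these classes. RABs and effectors had 3 of 8 and ESCRT genes 1 of 6. The members' values also followed exon length, as given below, and role and length were not separated.

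Within the coat, 0 of 8 genes passed in edgeR, DESeq2 or limma-voom, and 1, AP2A1, had an unadjusted p under 0.05. The large AP-2 subunits were positive, AP2A1 at 0.34 (adjusted p = 0.145), AP2A2 at 0.24 (0.183) and AP2B1 at 0.24 (0.238). The small subunit AP2S1 at -0.36 (0.333) and the light chains CLTA at -0.30 (0.264) and CLTB at -0.27 (0.531) were negative. Heavy chain CLTC, at -0.07 with an interval of -0.38 to 0.23, and AP2M1, at -0.09 with an interval of -0.33 to 0.16, lay near 0. Of the adaptors and scaffolds other than EPN2, the largest value was that of ITSN1, an intersectin scaffold, at 0.42 (adjusted p = 0.175), and the related ITSN2 was at 0.14 (adjusted p = 0.692).

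Dynamin 2, the GTPase that cuts the neck of the pit, was at 0.04 (DNM2, 95% confidence interval -0.28 to 0.37). The phosphoinositide phosphatases that help shed the coat were at 0.28 for SYNJ1 (adjusted p = 0.3001) and 0.15 for SYNJ2 (adjusted p = 0.398). Among RABs, the fast recycling GTPase RAB4A was at -0.42 (adjusted p = 0.121) and RAB7A at -0.29 (adjusted p = 0.150), beside the fall of RAB11A. RAB4A was at 60.8, 56.8 and 60.5 CPM in control, 84.8, 87.8 and 54.7 in knockdown-labelled and 58.0, 58.3 and 53.6 in rescue libraries. Knockdown-labelled libraries 1 and 2 alone were high. The RAB11 effector RAB11FIP1 was at 0.38 (adjusted p = 0.110) and the RAB5 effector EEA1 at 0.28 (adjusted p = 0.314). TSG101, the ESCRT-I subunit that recognises ubiquitin, was at -0.41 (95% confidence interval -0.72 to -0.10, adjusted p = 0.0859).

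**Figure D3:**
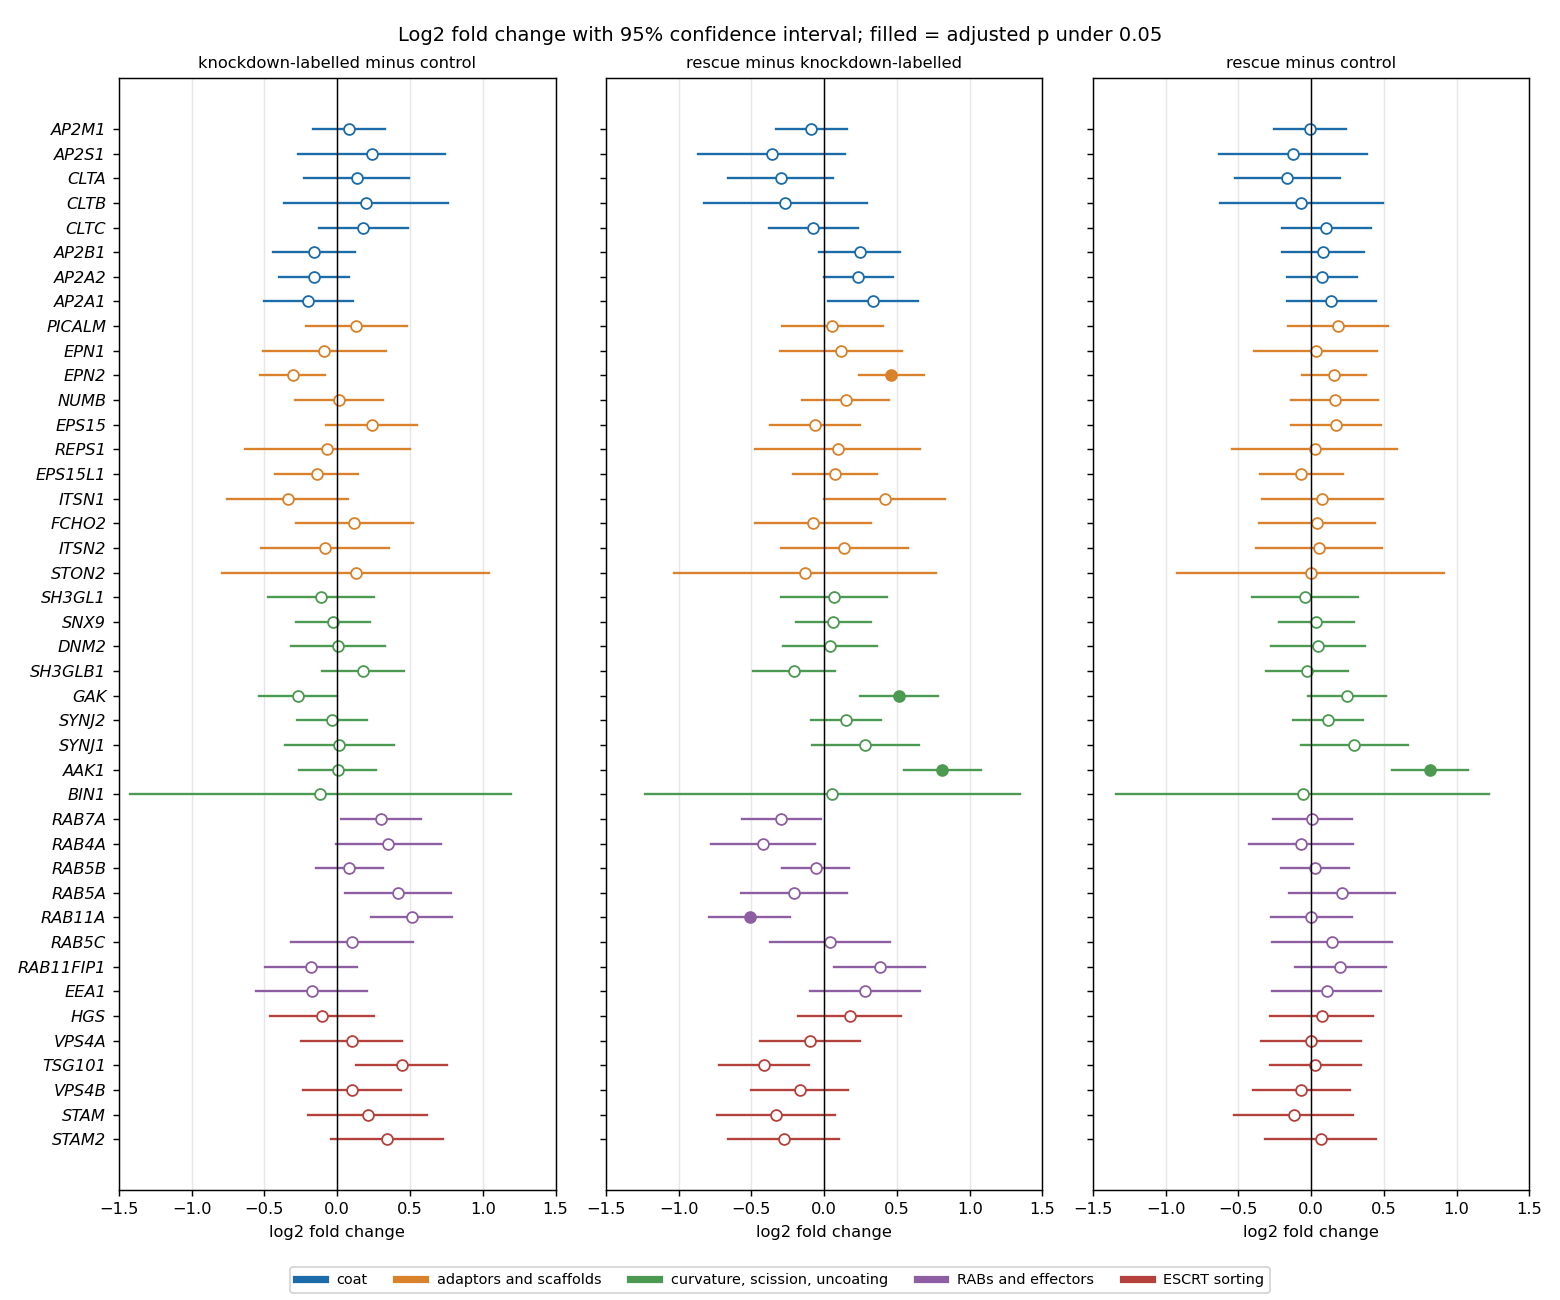
Log2 fold change of each of the 42 genes in the 3 comparisons with its 95% confidence interval, from 1 fit over 9 libraries; genes are ordered by role class and by control level per kilobase, and filled points passed at an adjusted p under 0.05. AAK1 is filled in both comparisons with the rescue group, at 0.81 and 0.82, and no point is filled for knockdown-labelled against control.

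Against control, the libraries labelled knockdown differed in none of the 42 members by edgeR's test over all 9 libraries. The counts were 0 higher beside 0.00595% of all tested genes and 0 lower beside 0%. An unadjusted p under 0.05 was found for 6 members, 14.3% against 19.1% of all genes, limma-voom called 0 and DESeq2 called 1, RAB11A (0.51, adjusted p = 0.0158), beside 572 higher and 424 lower genes that DESeq2 called over the whole table. Over the 19 alternatives RAB11A's adjusted p ran from 0.000118 to 0.328. In 3 members the knockdown-labelled libraries all lay above the controls, 7.14% against 11.0% of all genes, and in 3 they all lay below, 7.14% against 10.2%. The higher 3 were RAB11A, RAB7A and TSG101 and the lower 3 EPN2, GAK and AP2A2. The median was 0.05 beside 0.02 for all genes, and -0.18 beside -0.21 under library size alone.

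RAB11A had a log2 fold change of 0.51 (95% confidence interval 0.23 to 0.79, adjusted p = 0.0960) for knockdown-labelled against control, and its libraries did not overlap between those groups. TSG101 was at 39.1, 40.8 and 39.7 CPM in control, 56.9, 62.7 and 42.9 in knockdown-labelled and 40.3, 39.4 and 42.4 in rescue libraries. Libraries 1 and 2 of the knockdown-labelled group stood well above the rest, and the third lay just above them (log2 fold change against control 0.44, adjusted p = 0.140). RAB5A, the GTPase of vesicle fusion with early endosomes, was at 48.8, 54.7 and 57.2 CPM in control, 79.4, 82.5 and 52.8 in knockdown-labelled and 59.5, 58.8 and 67.8 in rescue libraries. Here library 3 fell within the control range (log2 fold change against control 0.42, adjusted p = 0.209). RAB7A was at 148, 149 and 158 CPM in control, 202, 197 and 162 in knockdown-labelled and 154, 139 and 164 in rescue libraries, with a log2 fold change of 0.30 against control (adjusted p = 0.221).

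On the lower side, EPN2 had a log2 fold change of -0.31 against control (95% confidence interval -0.53 to -0.08, adjusted p = 0.148) and GAK one of -0.27 (-0.54 to -0.00062, adjusted p = 0.261). The GAK value turned to 0.087 after the length and GC correction (adjusted p over all alternatives 0.0205 to 0.709). Other values shrank with that correction, EPN2 to -0.12 (adjusted p = 0.549) and ITSN1 to -0.18 (adjusted p = 0.425). On the higher side, RAB11A went to 0.33 (adjusted p = 0.297), TSG101 to 0.35 (adjusted p = 0.270) and RAB5A to 0.29 (adjusted p = 0.419). ITSN1 was at 64.9, 61.8 and 70.7 CPM in control, 40.5, 44.5 and 70.8 in knockdown-labelled and 75.9, 68.7 and 63.6 in rescue libraries. Knockdown-labelled libraries 1 and 2 were the lowest of the 9 and library 3 lay just above the control range (log2 fold change against control -0.34, adjusted p = 0.358). AAK1, the member with the largest value in the other comparisons, had a log2 fold change of 0.0037 here, with an interval of -0.26 to 0.27.

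The number of members passing against control depended on library 3 of the knockdown-labelled group. Without library 1, or without library 2, 0 members passed. With that library left out, 12 members passed, 8 higher, or 19.0% beside 18.1% of all genes, and 4 lower, or 9.52% beside 14.8%. The 8 were RAB11A (0.61), RAB5A (0.60), TSG101 (0.59), RAB4A (0.54), AP2S1 (0.51), CLTB (0.49), RAB7A (0.39) and CLTA (0.32), and the 4 were ITSN1 (-0.63), REPS1 (-0.53), EPN2 (-0.29) and AP2B1 (-0.27). The share of higher members is near that of all genes in that fit. Its calls rest on knockdown-labelled libraries 1 and 2, which lay close together and whose spread may be technical. With libraries 1 and 2 left out and library 3 alone standing for the group, 10 members passed, 2 higher, or 4.76% beside 2.34% of all genes, and 8 lower, or 19.0% beside 9.07%. The lone library was there assumed to vary like the other groups.

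Those 2 were STAM2 (0.69), an ESCRT-0 subunit, and REPS1 (0.52), which encodes an EH-domain partner of epsins. The 8 were CLTB (-0.71), EPN1 (-0.70), the endophilin SH3GL1 (-0.59), AP2S1 (-0.56), HGS (-0.55), AP2A1 (-0.51), GAK (-0.47) and DNM2 (-0.39). CLTB (0.49 and -0.71), AP2S1 (0.51 and -0.56) and REPS1 (-0.53 and 0.52) had opposite signs in the 2 fits, as did other members. How many of all genes did so was not counted. AP2S1 was at 113, 111 and 109 CPM in control, 172, 144 and 76.7 in knockdown-labelled and 99.3, 96.9 and 109.7 in rescue libraries. CLTB was at 69.6, 69.2 and 62.6 CPM in control, 100.7, 88.6 and 41.9 in knockdown-labelled and 63.7, 56.3 and 72.1 in rescue libraries. In both genes libraries 1 and 2 lay above and library 3 below all 6 others. REPS1 was the mirror image, at 40.4, 48.2 and 50.0 CPM in control, 34.5, 30.0 and 67.7 in knockdown-labelled and 43.2, 52.3 and 45.4 in rescue libraries.

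**Figure D4:**
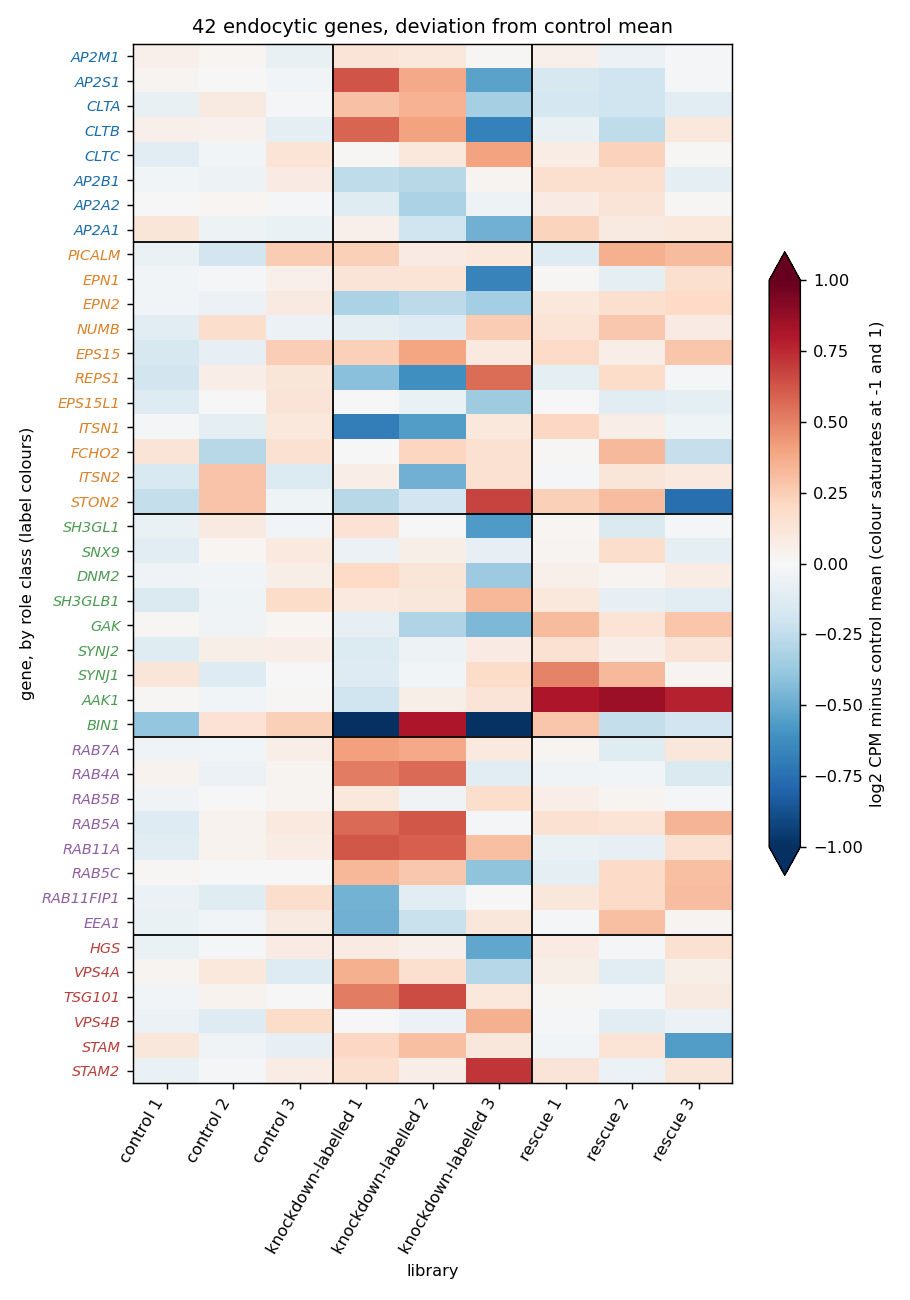
Log2 CPM (prior count 2) of each of the 42 genes in each library minus the mean of the 3 control libraries; rows are genes by role class, columns are libraries, and colour saturates at -1 and 1. AP2S1 and CLTB are red in knockdown-labelled libraries 1 and 2 and blue in library 3, REPS1 is the reverse, and AAK1 is red in the 3 rescue libraries.

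The same split runs through the rescue against knockdown-labelled contrast. Without knockdown-labelled library 3, 17 members passed, 9 higher, or 21.4% beside 18.6% of all genes, and 8 lower, or 19.0% beside 20.4%. The rises then added ITSN1 (0.70), REPS1 (0.54), RAB11FIP1 (0.47), EEA1 (0.44), AP2B1 (0.35) and AP2A2 (0.29) to AAK1 (0.87), EPN2 (0.44) and GAK (0.43). The falls were AP2S1 (-0.64), RAB4A (-0.61), RAB11A (-0.61), CLTB (-0.57), TSG101 (-0.56), CLTA (-0.49), RAB5A (-0.39) and RAB7A (-0.39). Against library 3 alone, 13 members passed, 11 higher, or 26.2% beside 12.7% of all genes, and 2 lower, or 4.76% beside 6.84%. AAK1 (0.71), GAK (0.72) and EPN2 (0.52) rose in that fit too, and RAB11A, at -0.28 (adjusted p = 0.155), did not pass.

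Rescue libraries were also set against control libraries, which compares cells given UGT2B28 with the cells labelled NT. AAK1 rose and was the sole member to pass, 1 of 42 or 2.38%, beside 0.143% of all genes higher and 0.00595% lower. Its log2 fold change was 0.82 (SE 0.119, 95% confidence interval 0.55 to 1.08, adjusted p = 0.0355). While the change stayed at 0.79 to 0.84, the adjusted p was 0.298, 0.279 and 0.104 without control library 1, 2 and 3, 0.143, 0.151 and 0.125 without rescue library 1, 2 and 3, and 0.0551 without knockdown-labelled library 2. Over the 19 alternatives it ran from 8.60e-07 to 0.298. In 5 members every rescue library lay above every control library, 11.9% against 12.8% of all genes, and in 1 member every rescue library lay below, 2.38% against 13.6%. The 5 were AAK1, GAK, EPN2, SYNJ2 and RAB5A, and the 1 was CLTA. AAK1 alone of the 42 had an unadjusted p under 0.05, 2.38% against 10.54% of all genes. Positive values numbered 30 of 42, or 71.4% against 49.0% of all genes. The median was 0.05 beside -0.0066 for all genes, and -0.0090 beside -0.049 after the length and GC correction.

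GAK was at 0.25 (adjusted p = 0.509) and EPN2 at 0.16 (adjusted p = 0.659) for rescue against control. SYNJ1 was at 17.0, 14.3 and 15.7 CPM in control, 14.3, 15.4 and 17.7 in knockdown-labelled and 22.1, 19.6 and 15.9 in rescue libraries, with overlapping groups and a value of 0.30 (adjusted p = 0.586). CLTA was at 104, 117 and 109 CPM in control, 135, 140.4 and 87.3 in knockdown-labelled and 97.2, 95.7 and 102 in rescue libraries. Its rescue libraries lay just below the controls (-0.16, 95% confidence interval -0.53 to 0.20, adjusted p = 0.804). STAM, the ESCRT-0 partner of HGS, was at 18.1, 16.2 and 15.7 CPM in control, 19.2, 20.6 and 18.0 in knockdown-labelled and 16.3, 18.3 and 11.2 in rescue libraries (-0.12, adjusted p = 0.891). For RAB11A the value was 0.0020, with an interval of -0.28 to 0.28.

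Ratios of related genes within a library do not depend on library size, and 13 such pairs were compared over 3 comparisons by an exact two-sided permutation test. With 3 libraries against 3 the smallest p it allows is 0.1, and 0 of the 39 tests passed (smallest adjusted p = 0.780). The groups did not overlap in 2 of 13 pairs for knockdown-labelled against control and in 3 for rescue against control. For rescue against knockdown-labelled the number was 0. Full separation in either direction has that p of 0.1 in each test, so some of the 39 would show it by chance. The separated pairs below are therefore a description. The log2 count ratio of AAK1 to GAK was -2.00, -2.00 and -2.01 in control, -2.12, -1.64 and -1.43 in knockdown-labelled and -1.51, -1.27 and -1.51 in rescue libraries. The balance of these kinases was tight in control and lay nearer to AAK1 in every rescue library, by 0.57. For EPN1 to EPN2 the ratio was 1.14, 1.17 and 1.10 in control, 1.58, 1.53 and 0.80 in knockdown-labelled and 1.04, 0.88 and 1.10 in rescue libraries. All rescue libraries lay below the controls, by 0.13 on average, and knockdown-labelled library 3 parted from the other 2. EPS15 to EPS15L1, scaffolds of the early pit, stood at -0.07, -0.12 and 0.08 in control, 0.21, 0.43 and 0.41 in knockdown-labelled and 0.15, 0.14 and 0.33 in rescue libraries. Both other groups lay above control, by 0.39 and 0.24. RAB5A to RAB5C was at 0.70, 0.88 and 0.94 in control, 1.08, 1.19 and 1.23 in knockdown-labelled and 1.08, 0.78 and 0.88 in rescue libraries, with knockdown-labelled above control by 0.33.

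In the other 9 pairs the groups overlapped in every comparison. Between the clathrin light chains, CLTA to CLTB was at 0.58, 0.76 and 0.80 in control, 0.42, 0.66 and 1.06 in knockdown-labelled and 0.61, 0.76 and 0.50 in rescue libraries. Between the AP-2 alpha subunits, AP2A1 to AP2A2 was at -0.04, -0.23 and -0.22 in control, 0.01, -0.04 and -0.59 in knockdown-labelled and -0.02, -0.20 and -0.06 in rescue libraries. Knockdown-labelled library 3 held the highest light chain ratio and the lowest alpha ratio of the 9. ITSN1 to ITSN2 was at 2.11, 1.60 and 2.21 in control, 1.21, 1.90 and 1.93 in knockdown-labelled and 2.19, 1.92 and 1.83 in rescue libraries. SYNJ1 to SYNJ2 was at -2.31, -2.74 and -2.61 in control, -2.55, -2.53 and -2.45 in knockdown-labelled and -2.21, -2.29 and -2.66 in rescue libraries. SYNJ2 was thus the more counted synaptojanin in every library.

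RAB5B to RAB5C was at 1.86, 1.91 and 1.94 in control, 1.68, 1.59 and 2.48 in knockdown-labelled and 2.06, 1.74 and 1.58 in rescue libraries. STAM to STAM2 was at -0.32, -0.53 and -0.67 in control, -0.46, -0.27 and -1.11 in knockdown-labelled and -0.66, -0.31 and -1.19 in rescue libraries. For the ATPases that take ESCRT filaments apart, VPS4A to VPS4B was at 1.36, 1.52 and 0.97 in control, 1.65, 1.51 and 0.64 in knockdown-labelled and 1.36, 1.28 and 1.40 in rescue libraries. Knockdown-labelled library 3 lay outside the range of all other libraries for RAB5B to RAB5C and for VPS4A to VPS4B. The endophilin ratio of SH3GL1 to SH3GLB1 was at 1.31, 1.37 and 1.02 in control, 1.27, 1.13 and 0.34 in knockdown-labelled and 1.15, 1.17 and 1.32 in rescue libraries, with library 3 again the lowest. NUMB, an adaptor that steers integrins and NOTCH into pits, had a log2 count ratio to DAB2 of 6.16 to 10.2, a ratio that rests on 0 to 8 counts of DAB2.

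The members' log2 fold changes were ordered along exon length, taken as the union of all annotated exons. Length by the longest transcript was not tried. Over the 42 members, Pearson's r between the change and log2 exon length was 0.74 for rescue against knockdown-labelled (Spearman's rho 0.77), -0.59 for knockdown-labelled against control (rho -0.65) and 0.56 for rescue against control (rho 0.57). Over all 16192 tested genes with a length and GC content the same r was 0.04, -0.03 and 0.02 and rho 0.13, -0.09 and 0.08. Against the GC content of the longest transcript, r was 0.23, -0.43 and -0.16 over the members and 0.24, -0.22 and 0.08 over all genes, in the same order. These correlations are across genes that share libraries, and genes are not independent replicates. AAK1 has the longest exon total of the 42, 23.6 kilobases, and AP2S1 the shortest, 1.70 kilobases. Among the 21 longer members 18 were positive for rescue against knockdown-labelled, and among the 21 shorter members 5 were. Split at the same lengths, 64.0% and 45.3% of all genes were positive.

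The order along length was not the same in all libraries of a group. Taking each library's deviation from the control mean, r with log2 length was -0.62 and -0.60 in knockdown-labelled libraries 1 and 2 and 0.18 in library 3. It was 0.58, 0.50 and 0.26 in rescue libraries 1, 2 and 3 and lay between -0.17 and 0.20 in the controls. By the union of exons, the members are long genes as a set, with a median of 7.22 kilobases against 4.25 for all. After the correction for length and GC content of all genes, AAK1 had a log2 fold change of 0.55 (adjusted p = 0.0319) for rescue against knockdown-labelled and was the sole member to pass. EPN2 was then at 0.17 (adjusted p = 0.271) and RAB11A at -0.31 (adjusted p = 0.199).

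**Figure D5:**
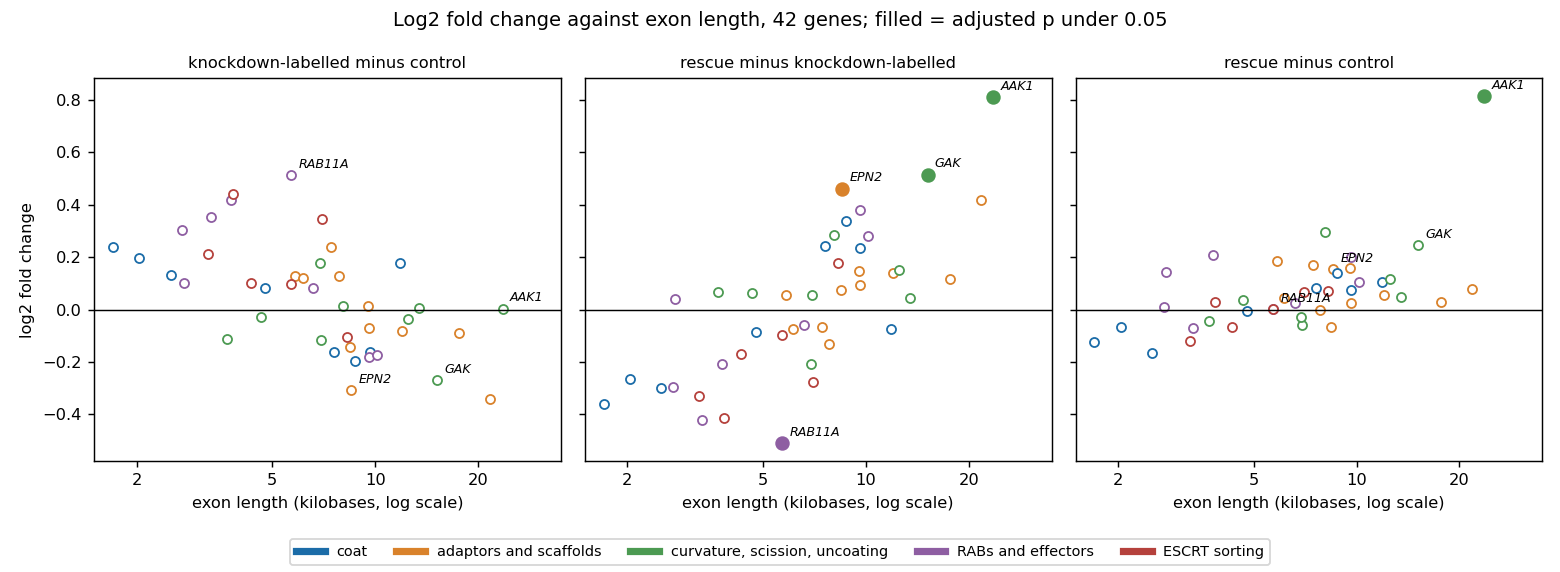
Log2 fold change of the 42 genes against the summed length of their exons (log axis) in the 3 comparisons, coloured by role class, with filled points for an adjusted p under 0.05. Points climb from left to right for rescue against knockdown-labelled (r = 0.74) and fall for knockdown-labelled against control (r = -0.59).

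Some members share sequence or exons with other genes, and the strand setting of the counting was not given in the sources used here. For RAB5C 31.7%, for VPS4A 27.3% and for RAB4A 19.1% of the 100-base stretches of the transcripts also occur in another gene. An annotated gene on the other strand covers 24.8% of the exon bases of RAB11FIP1, 23.5% of those of HGS, 22.0% of VPS4A, 19.5% of EPN2 and 17.9% of EEA1. Values of these genes are uncertain to that extent. AAK1, GAK and RAB11A had neither an overlap on the other strand nor a shared stretch.

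Other genes of the pathway were followed in 6 lists for context. Their counts for rescue against knockdown-labelled stand beside 4.44% of all tested genes that rose and 5.39% that fell. In rescue against knockdown-labelled libraries, 5 of 15 cargo receptors rose and 0 fell, with a list median of 0.42. Among those that rose were LRP1 (1.27), IGF1R (1.19), EGFR (0.82) and IGF2R (0.61), surface proteins that these coats carry. Of 35 other clathrin accessory genes 4 rose and 0 fell. They were TNK2 (0.97), a clathrin-binding kinase, HIP1R (0.67), a link from coat to actin, the arrestin ARRB1 (0.51) and the F-BAR protein PACSIN2 (0.51). HIP1R was at 142, 137 and 138 CPM in control, 116, 107 and 80.1 in knockdown-labelled and 153, 148 and 183 in rescue libraries. Of 17 genes of the AP-1, AP-3 and GGA coats, which act at the Golgi and endosomes, AP3D1 rose (0.48) and 0 fell.

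In the lists of endosomal genes, calls went both ways except among the other ESCRT genes. Of 22 retromer, retriever and sorting nexin genes, VPS26B rose (0.39) and SNX3 (-0.76), VPS29 (-0.64), SNX2 (-0.50) and SNX6 (-0.50) fell. Of 38 other endosomal RABs, effectors and tethers, 4 rose, RAB31 (2.16, from a mean of 0.724 CPM), RAB11FIP5 (1.08), RAB35 (0.56) and RAB11FIP3 (0.50), and 3 fell, VPS33A (-0.96), RAB8A (-0.39) and ZFYVE16 (-0.37). Of 26 other ESCRT genes, VTA1 (-0.61) and VPS37A (-0.45) fell and 0 rose. In knockdown-labelled against control, edgeR and limma-voom called 0 of the 153 genes tested in the 6 lists and DESeq2 called 8, beside 996 over all genes. An unadjusted p under 0.05 was found for 33, or 21.6% against 19.1% of all genes. In rescue against control, edgeR and limma-voom again called 0 and DESeq2 8, beside 326 over all genes, and 22 had an unadjusted p under 0.05, or 14.4% against 10.54%. The 5 cargo receptors that rose have exon totals of 7.72 to 20.8 kilobases, and the 5 retromer and nexin genes named 1.84 to 6.48 kilobases. Of those 5 retromer and nexin genes the longest was VPS26B, the one that rose. In the remaining lists the lengths of rising and falling genes overlapped. The genes that rose there had 4.022 (RAB35) to 12.02 kilobases (TNK2). Those that fell had 5.191 (RAB8A) to 11.46 kilobases (ZFYVE16). The part of length in these lists was not tested.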

How the data were processed

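Total RNA of LAPC4 cells was sequenced as paired-end libraries, per the labels' protocols. The values deposited by the authors are whole-number counts of reads per gene, with no normalization. FastQC, cutadapt, STAR, HTSeq and hg38 are named per the submitters' processing notes, and versions, strand option and annotation were not given in the sources used here. Rows without a gene stayed out of library sizes and tests: 43.7% to 48.7% of counted reads had no feature, 2.36% to 3.14% were ambiguous and 7.67% to 11.6% were not unique. Groups come from sample titles.

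All 16796 genes that passed filterByExpr (minimum count 10) were fitted with edgeR 4.0.16 in R 4.3.3 (TMM, quasi-likelihood F test, 9 libraries in one fit, 6 residual degrees of freedom). Genes passed at an adjusted p under 0.05 (Benjamini-Hochberg, over all tested genes). The standard error is the log2 fold change over the square root of F. CPM per kilobase divides CPM by the union of exons in GENCODE 29, to which 55661 of the rows matched, and is computed here. Log2 CPM uses a prior count of 2, and paralogue ratios a pseudocount of 0.5 with an exact permutation test. Scripts were tested on simulated data, in which the libraries of a group shared one mean, without the split of knockdown-labelled library 3. Of 100 simulated 2-fold changes, 48% were recovered for knockdown-labelled against control and 51% for rescue against knockdown-labelled. For rescue against control it was 59%, so changes below 2-fold can be missed. Every member may be named; values in every library are given for members that passed, for the 3 smallest p of each sign and comparison, for the highest control level in each role class and for paralogue pairs, the latter as ratios. CLTB, REPS1 and, outside the members, HIP1R were chosen for full values after those values were seen. One gene of the cargo receptor list that passed is not reported here by name. The members, lists and tests were chosen with earlier results of these data known.

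Alternatives changed the tool (the Wald test of DESeq2 1.42.0, limma-voom of limma 3.58.1), the scaling (DESeq2 size factors, library size alone), the filter (none, or 1 CPM in 3 libraries) and the design (only the groups compared, replicate number as block). Further ones were a loess correction for length and GC content (available for 96.4% of tested genes), each library left out in turn, and knockdown-labelled libraries 1 and 2 left out together.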

Additional observations from a re-analysis of the deposited data

How the results depend on the processing

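With 3 libraries a group and 8132206 to 14185252 counts each, the number of libraries and the split within the knockdown-labelled group set the precision. DESeq2 size factors, the filter of 1 CPM, the DESeq2 Wald test and limma-voom each kept the 4 members passing in rescue against knockdown-labelled, and no filter on low counts kept 3. That count was 0 with only the groups compared, 1 with the length and GC correction, 5 under library size alone (5 higher, 0 lower), 1 to 17 with 1 library left out and 13 without knockdown-labelled libraries 1 and 2. For knockdown-labelled against control it was 0 in the main fit, 1 with the DESeq2 Wald test, 0 to 12 with 1 library left out and 10 without knockdown-labelled libraries 1 and 2. For rescue against control, 1 member passed in the main fit, 0 under library size alone or the length and GC correction, and 0 to 1 with 1 library left out. The tests of paralogue ratios stayed at 0 past the threshold in all 10 alternatives, as the design cannot go below 0.1 unadjusted.

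The replicate numbers do not pair the libraries: same-numbered deviations correlated at -0.14, -0.16 and -0.35 between knockdown-labelled and rescue, at 0.0035, -0.03 and -0.04 between control and knockdown-labelled and at 0.08, -0.02 and 0.06 between control and rescue. With the replicate block, the members passing numbered 1 (AAK1) for rescue against knockdown-labelled, 0 for rescue against control and 0 for knockdown-labelled against control.

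Among the genes with the smallest p in each comparison, which were followed through every alternative, the sign turned in 6 cases. GAK went to 0.087 for knockdown-labelled against control and to -0.042 for rescue against knockdown-labelled with the length and GC correction. Without knockdown-labelled libraries 1 and 2, RAB5A went to -0.049 and ITSN1 to 0.080 against control and RAB4A to 0.073 for rescue against knockdown-labelled. STAM ran from -0.27 to 0.061 for rescue against control with 1 library left out, and was above 0 without rescue library 3. Other members turned too, CLTB (-0.71) and AP2S1 (-0.56) among them against control without knockdown-labelled libraries 1 and 2. Under library size alone, the members' median turned to -0.18 for knockdown-labelled against control, beside -0.21 for all genes. Without knockdown-labelled library 3 it turned to -0.027 for rescue against knockdown-labelled, beside 0.029 for all genes. With the length and GC correction it was -0.11 for that comparison, beside -0.0701 for all genes. For rescue against control it was then -0.0090, beside -0.049 for all genes. The cause was not tested. AAK1 passed in 18 of 19 alternatives for rescue against knockdown-labelled, and lost its call in 10 of 19 for rescue against control, where the adjusted p reached 0.298.

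Library size alone moved the median of all genes to 0.24 for rescue against knockdown-labelled and changed the split of calls from 745 higher and 906 lower to 1327 and 230, and the length and GC correction changed it to 364 and 999. Over all genes the 1651 calls of that comparison became 7 with only the groups compared, 442 with the block, 2702 with DESeq2, 2636 with no filter and 134 to 6745 with 1 library left out. The 1 call of knockdown-labelled against control became 0 to 5691 over the alternatives and the 25 of rescue against control became 1 to 1276.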
